A study of Mus musculus with 2 samples.

Results

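In the list of open chromatin peaks of CPCs, 36 of 26232 distinct intervals were assigned to replication-dependent histone genes. They were chosen by their assigned gene symbol, which starts with Hist1h, Hist2h, Hist3h or Hist4h, and carried 32 of the 15351 symbols in the list. These genes encode the core histones H2A, H2B, H3 and H4 and the linker histone H1 that package newly made DNA. Their mRNAs are made mainly in S phase, lack introns and a poly(A) tail, and end in a conserved stem-loop that the stem-loop binding protein Slbp recognises. The genes lie in clusters, many as head-to-head H2A and H2B pairs that share 1 promoter region, and they gather in histone locus bodies around the coactivator Npat.

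Open chromatin at these genes was taken from ATAC-seq, in which the Tn5 transposase cuts accessible DNA, of mouse CPCs, the cardiac progenitors obtained after 5 days of differentiation in culture. The single group had 2 replicate samples, made from E14 Tg(Nkx2-5-EmGFP) mouse embryonic stem cells of passages 16-20, labelled C57BL/6, with no treatment. The line carries an EmGFP reporter of Nkx2-5, which not all cells express. The methods sort GFP-positive cells at day 5 after hanging drop culture and, for RNA extraction, in the directed protocol. Their account of these libraries, from independent differentiations, states neither the protocol nor whether sorted cells were used. Isl1 knockdown cells named for the series were not analysed here.

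The list gives 1 set of intervals for both replicates, with coordinates and a distance to a transcription start site (TSS) and no signal. Depth was therefore unknown, no replicate error or test could be had, and the 95% Wilson intervals given with shares cover counting error over genes or intervals only. Within 1 kb of their TSS, 4 of 6 cardiac progenitor markers had a peak (Nkx2-5, Isl1, Tbx5 and Mef2c; Gata4 and Hand2 had none), against 2 of 4 pluripotency, 1 of 4 endothelial, 2 of 3 neural and 0 of 3 liver markers. Shares of cell types and of accessible alleles cannot be told apart in such bulk samples.

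The DNA between the annotated starts of head-to-head H2A and H2B genes is shown first, since 8 of the histone peaks lay over such stretches. The genes are read outward from each end, and capitals mark the CCAAT box, the octamer ATTTGCAT and the TATA box TATAAA on either strand (mm9, plus strand). A peak covered the starts of both genes in the first 3 of these stretches, and the list held none at the last 2. The octamer stood in each of the first 3 and not in the last 2, but other pairs differed. The promoter windows counted below lacked it at Hist1h2bl-Hist1h2ai, Hist1h2an-Hist1h2bp, Hist1h2ag-Hist1h2bj and Hist1h2bf-Hist1h2ad, which had a peak. They held it at Hist1h2ba-Hist1h2aa, which had none, and at Hist2h2ac, which had a peak.
Hist1h2ah-Hist1h2bk (chr13:22127513-22127689, plus strand): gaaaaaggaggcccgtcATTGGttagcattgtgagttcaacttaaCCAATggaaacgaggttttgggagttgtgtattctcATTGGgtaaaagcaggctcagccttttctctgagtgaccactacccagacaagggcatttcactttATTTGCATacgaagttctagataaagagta
Hist1h2ae-Hist1h2bg (chr13:23663090-23663264, plus strand): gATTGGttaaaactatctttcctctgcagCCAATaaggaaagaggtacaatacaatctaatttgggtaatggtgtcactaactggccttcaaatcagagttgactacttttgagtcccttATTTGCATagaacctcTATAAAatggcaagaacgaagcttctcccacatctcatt
Hist1h2ac-Hist1h2bc (chr13:23775818-23776067, plus strand): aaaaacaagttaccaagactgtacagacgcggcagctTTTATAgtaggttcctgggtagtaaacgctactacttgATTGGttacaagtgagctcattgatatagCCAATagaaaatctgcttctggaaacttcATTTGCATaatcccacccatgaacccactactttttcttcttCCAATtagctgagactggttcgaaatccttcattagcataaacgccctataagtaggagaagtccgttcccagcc
Hist1h2ak-Hist1h2bn (chr13:21845777-21845991, plus strand): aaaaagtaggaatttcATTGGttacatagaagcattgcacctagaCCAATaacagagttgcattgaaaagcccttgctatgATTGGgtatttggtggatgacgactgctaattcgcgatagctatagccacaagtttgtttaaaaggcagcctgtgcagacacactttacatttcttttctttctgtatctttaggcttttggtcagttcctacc
Hist1h2bq-Hist1h2ao (chr13:21902069-21902235, plus strand): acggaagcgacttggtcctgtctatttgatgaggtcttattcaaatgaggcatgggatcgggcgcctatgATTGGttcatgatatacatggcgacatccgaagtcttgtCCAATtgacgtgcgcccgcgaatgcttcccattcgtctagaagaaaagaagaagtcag
The last of these stands in the genome a second time. The reverse strand of the 167 bases between Hist1h2ap and Hist1h2br matched it with 0 mismatches.

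For H1 and H4, whose genes stand alone, the 150 bases before the start are shown in the direction of transcription for 1 gene with a peak and 1 without. Capitals also mark the H1 box AAACACA, an element of H1 promoters.
Hist1h1d, with a peak (chr13:23646751-23646900, plus strand): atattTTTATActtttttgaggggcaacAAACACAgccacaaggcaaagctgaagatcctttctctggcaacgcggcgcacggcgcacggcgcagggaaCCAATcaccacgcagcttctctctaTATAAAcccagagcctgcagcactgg
Hist1h1c, without (chr13:23830526-23830675, plus strand): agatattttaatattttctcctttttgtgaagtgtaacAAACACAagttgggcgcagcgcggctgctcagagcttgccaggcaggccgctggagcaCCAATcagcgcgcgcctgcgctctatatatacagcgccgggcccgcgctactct
Hist1h4d, with a peak (chr13:23673317-23673466, plus strand): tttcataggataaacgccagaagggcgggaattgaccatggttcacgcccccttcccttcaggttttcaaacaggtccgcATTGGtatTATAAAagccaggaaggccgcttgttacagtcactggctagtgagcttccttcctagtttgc
Hist1h4c, without (chr13:23790324-23790473, minus strand): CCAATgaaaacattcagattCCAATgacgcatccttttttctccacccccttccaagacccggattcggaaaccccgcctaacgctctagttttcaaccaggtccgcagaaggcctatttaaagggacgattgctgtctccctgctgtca
Both H1 stretches held the H1 box and a CCAAT box, so these words were present with and without a peak.

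The 3′ ends are shown because the peaks ran over them. Capitals mark the stem, with the 4-base loop and 5 bases on either side in lower case (mm9). The stem of most genes was GGCTCT paired with AGAGCC, and that of H4 genes GGCCCT with AGGGCC.
Hist1h2ad (chr13:23666759-23666784, plus strand): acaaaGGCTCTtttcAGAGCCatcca
Hist1h2bk (chr13:22128164-22128189, plus strand): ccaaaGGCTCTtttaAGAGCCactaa
Hist1h3b (chr13:23844684-23844709, plus strand): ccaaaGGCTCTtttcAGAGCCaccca
Hist1h1d (chr13:23647651-23647676, plus strand): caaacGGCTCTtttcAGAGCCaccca
Hist1h4d (chr13:23673814-23673839, plus strand): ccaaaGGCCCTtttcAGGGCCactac
Hist4h4 (chr6:136752514-136752539, minus strand): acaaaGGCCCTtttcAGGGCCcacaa
A stem-loop with at most 2 mismatches to the first form in 12 stem bases was found within 150 bases after the last coding base in 59 of 67 protein coding histone genes. It began 25 to 62 bases after that base, with a median of 35. All 6 H1 and 11 H3 genes had the stem without a mismatch, as did 17 of 19 H2A and 13 of 18 H2B genes. All 11 H4 stem-loops found had 1 or 2 mismatches. The commonest form, with the loop tttc, was in 36 genes. In the other 8 genes no such word followed the coding end of the model used.

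The histone intervals fell into 6 groups, with neighbours in a group at most 100 kb apart. The Hist1 genes of chromosome 13 held 30 of them, in 3 groups and 1 lone interval, and the Hist2 genes of chromosome 3 and the Hist3 genes of chromosome 11 held 4 and 2. No interval was assigned to Hist4h4, the only Hist4h gene, on chromosome 6. Its TSS lay 3375 bp from the nearest peak, which was assigned to the variant gene H2afj.

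The first Hist1 group spanned 147 kb (chr13:21807275-21954195) with 9 intervals, the second spanned 23.0 kb (chr13:22120477-22143500) with 4 and the third spanned 238 kb (chr13:23626593-23864967) with 16. Median gaps between neighbours were 13118, 5546 and 7158 bp in this order, so the second group was the most tightly spaced of the Hist1 groups. The Hist2 group spanned 59.6 kb (chr3:96023122-96082720) with a median gap of 22130 bp, and the 2 Hist3 intervals lay 3985 bp apart within 7.43 kb (chr11:58761729-58769157). The lone interval, at Hist1h2al, lay far from the rest at chr13:51297776-51298603. RefSeq gives this gene a noncoding transcript and the newer symbol H2af-ps2, and no stem-loop was found for it. GENCODE vM1 has it as protein coding, so it was counted among the protein coding histone genes with a promoter peak.

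Over all groups the 30 gaps had a median of 6930 bp and ran from 99 to 60343 bp, beside a median of 33918 bp between neighbouring intervals in the whole list. The grouping rule leaves out histone gaps above 100 kb, whereas those of the whole list ran up to 7647754 bp. Part of this difference is thus set by the rule. The narrowest of the 30 gaps separated the intervals of Hist1h2ab and Hist1h3b, an H2A and an H3 gene on the same strand. The widest lay between the interval at Hist1h1e and the one at Hist1h2bc. In the Hist2 and Hist3 groups and the first and the second of the Hist1 groups every interval was assigned to a histone gene, and the third Hist1 group held 1 other, assigned to the iron regulator Hfe. Intervals per 100 kb were 6.13, 17.4 and 6.71 in the 3 Hist1 groups and 0.988 over the genome. The span of a group starts and ends at a histone interval, which raises its rate. Between the second and the third of the Hist1 groups a stretch of 1.22 Mb without an interval held 34 protein coding TSSs, of which 32 bore symbols of vomeronasal receptor genes starting with Vmn1r and the others were V1rh19 and Gm11044.

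**Figure D1:**
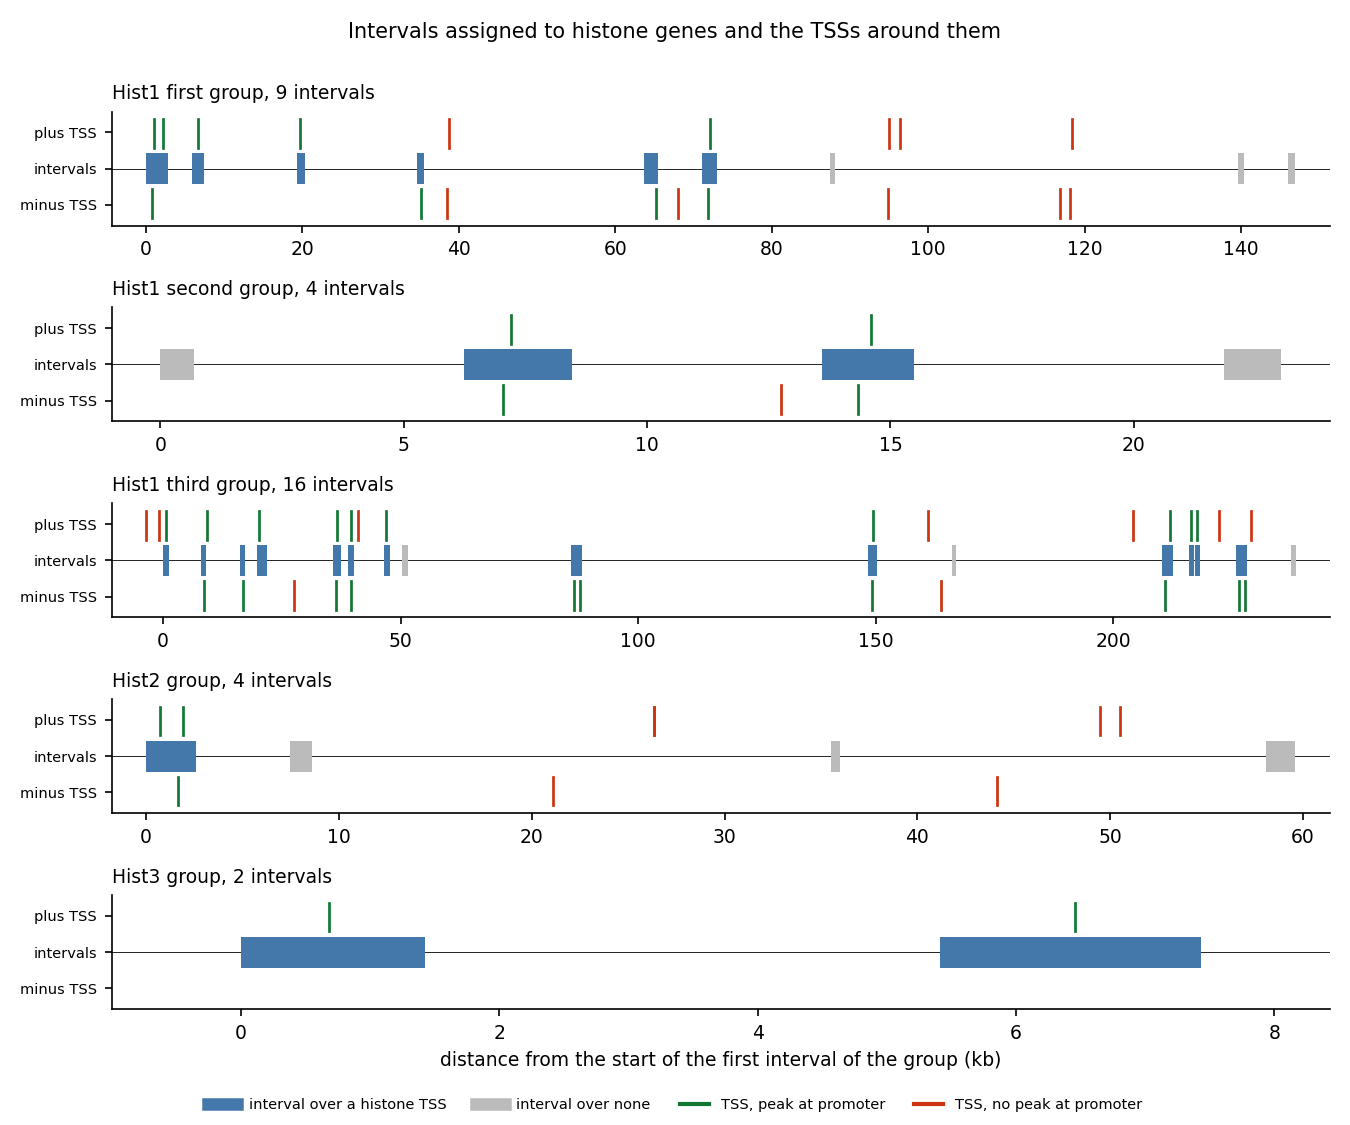
Intervals assigned to histone genes in 5 groups, as blocks along the distance in kb from the first interval of each group. Blue blocks cover at least 1 histone TSS and grey blocks none, and ticks above and below the line are TSSs of protein coding histone genes on the plus and minus strand, green with a peak at the promoter and red without. The red ticks at about 95 to 120 kb in the first Hist1 group are the duplicated genes, and grey blocks close both the second and the third Hist1 group.

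Peaks were found at the promoters of 39 of the 67 protein coding histone genes (58.2%, 46.3 to 69.3), where a promoter is the TSS farthest 5′ with 500 bp on either side. The share over all 22359 protein coding genes was 53.5%, inside that interval. The families ranged from 5 of 13 H4 genes (38.5%, 17.7 to 64.5) to 13 of 18 H2B genes (72.2%, 49.1 to 87.5), with 12 of 19 H2A, 6 of 11 H3 and 3 of 6 H1 genes between them. These family intervals overlapped one another, so no family stood apart by its count.

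The CpG content of the promoters set the histone genes against a different background. A promoter was called CpG-rich where GC made up at least 50% of its bases and the CpG ratio (observed to expected) reached 0.6, and 50 of 67 histone promoters (74.6%) were, against 44.6% of all protein coding promoters. Of the CpG-rich histone promoters 30 of 50 had a peak (60.0%, 46.2 to 72.4), below the 89.4% over all CpG-rich promoters. Of the CpG-poor ones 9 of 17 had a peak (52.9%, 31.0 to 73.8), above the 24.7% over all CpG-poor promoters. The first of these intervals lay wholly below, and the second wholly above, the share over all promoters of the class. They treat genes as independent, which neighbours under 1 peak are not. Except for Hist1h1t and Hist1h3f, the 17 CpG-poor histone promoters reached the CpG ratio of 0.6 and missed the class by GC content alone. Their class thus does not mean a low CpG ratio. Whether the same holds over all CpG-poor promoters was not tested. Hist1h2be, among the 9 with a peak, was classed at the start of its longer model.

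**Figure D2:**
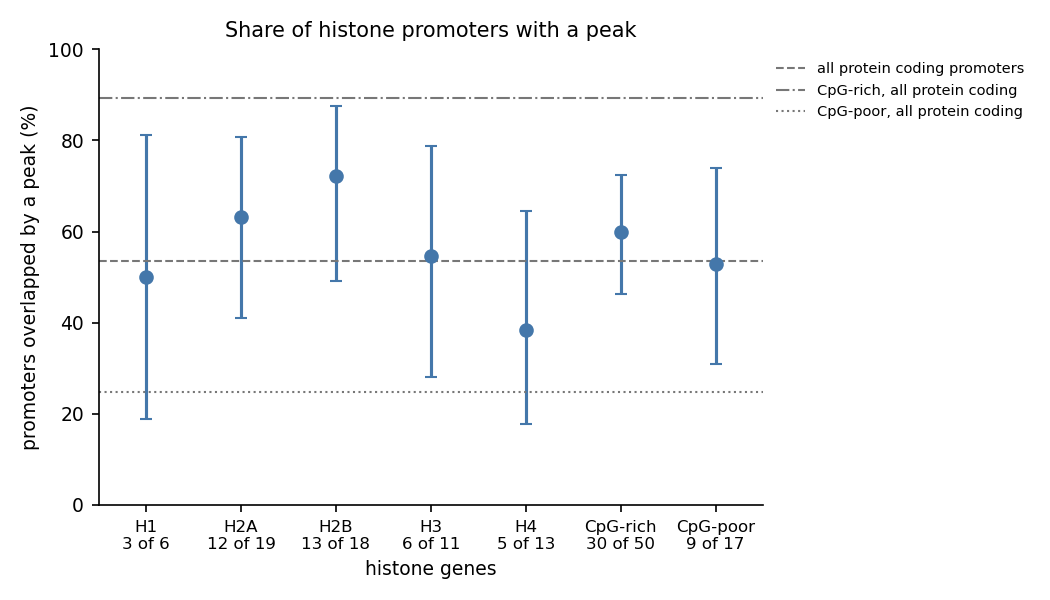
Share of histone promoters overlapped by a peak (%), by family and by CpG class, with 95% Wilson intervals as bars. Lines mark the share over all protein coding promoters (53.5%), over CpG-rich ones (89.4%) and over CpG-poor ones (24.7%). The point for CpG-rich histone promoters, at 60.0%, lies below its line, and that for CpG-poor ones, at 52.9%, above its line.

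Among the linker histone genes, Hist1h1b, Hist1h1d and Hist1h1e had a promoter peak. Hist1h1c, Hist1h1a and Hist1h1t, the testis form, had none, and their TSSs lay 6127, 743 and 5037 bp from the nearest peak. The H1 peaks ran over much of the genes. That of Hist1h1b was 1845 bp wide with its midpoint 675 bp after the TSS, that of Hist1h1d was 2155 bp wide at 605 bp, and the 2138 bp interval over Hist1h1e was assigned to Hist1h2be.

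Of the H4 genes, which encode the same protein from many copies, Hist1h4a, Hist1h4d, Hist1h4f, Hist1h4j and Hist1h4k had a promoter peak. Apart from the 2500 bp interval over Hist1h4a, which also covered Hist1h3a, these peaks were 890 bp (Hist1h4k) to 1175 bp (Hist1h4d) wide. Hist1h4b, Hist1h4c, Hist1h4h, Hist1h4i, Hist1h4m, Hist1h4n, Hist2h4 and Hist4h4 had none. The closest of these to a peak was Hist1h4i, 842 bp from the interval of the pair Hist1h2ag and Hist1h2bj. An interval was assigned to Hist1h4c, but its midpoint lay 2761 bp before the TSS.

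Of the H3 genes, Hist1h3a, Hist1h3b, Hist1h3c, Hist1h3f, Hist1h3g and Hist1h3h had a promoter peak, and Hist1h3d, Hist1h3e, Hist1h3i, Hist2h3b and Hist2h3c1 had none. At Hist1h3f the peak overlapped the promoter window but ended 197 bp from the TSS. Hist1h3d lay 797 bp from the peak over Hist1h2bf and Hist1h2ad, and Hist1h3i lay 2524 bp from that over Hist1h1b. Genes with and without a promoter peak thus alternated over a few kilobases.

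Of the H2A and H2B genes without a peak, Hist1h2ba and Hist1h2aa form the testis pair, outside the groups at 56597 and 56291 bp from the nearest peak. Hist1h2ak and Hist1h2bn form another pair, 2950 and 3166 bp from the peak of Hist1h4k. Hist1h2af lay 818 bp from the peak of Hist1h3g. Hist1h2bq, Hist1h2ao, Hist1h2ap and Hist1h2br are the duplicated genes, and Hist2h2aa1, Hist2h2aa2 and Hist2h2bb lie in the Hist2 group.

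Naming by the nearest gene hid part of these promoters. Of the 39 genes with a promoter peak, 27 had their own symbol in the list. The other 12 were listed only under a neighbour's symbol, among them Hist1h1e, Hist1h2ac, Hist1h2ae, Hist1h2ag, Hist1h3a and Hist1h3h. Of the 27, Hist2h2be and Hist1h2ah also had their promoter peak under a neighbour's symbol, Hist2h2ac and Hist1h2bk. The intervals under their own symbols had distances of 6159 and 6694 bp. Conversely, 4 symbols in the list belonged to genes whose promoter had no peak (Hist1h1a, Hist1h2br, Hist1h4c and Hist2h2bb), and Hist2h3c2 is a pseudogene model in GENCODE. The remaining 24 protein coding genes had neither.

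Counted by the assigned TSS, 26 of 36 histone intervals lay within 1 kb (72.2%, 56.0 to 84.2), against 44.9% of all intervals. Their signed distances ran from -624 to 675 bp with a median of 49 bp, beside 61 bp for all intervals within 1 kb. A positive distance is downstream of the TSS. Of the rest, 8 had a distance of up to 10 kb (2761 bp for Hist1h4c and over 3 kb for the other 7), and the farthest 2 were both assigned to Hist1h2br. In the whole list 41.4% of intervals had a distance above 10 kb, against 5.56% of the histone intervals. Of the 32 symbols, 29 had 1 interval (90.6%), against 60.8% of all symbols in the list.

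The genes with more than 1 interval were Hist1h2br with 3 and Hist1h2bj and Hist1h2be with 2 each. The intervals of Hist1h2bj were 1888 bp wide at -93 bp, shared with Hist1h2ag, and 1172 bp wide at 7815 bp, between genes at the end of the second group. Those of Hist1h2be were 1343 bp wide at 361 bp, over its coding exon, and 2138 bp wide at -624 bp, measured from the start of a longer model of 37383 bp whose 5′ end lies beside Hist1h1e. The 2 TSSs under the latter were 1378 bp apart and in the same direction.

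A single interval often covered several histone starts. Of the 25 histone intervals that covered a histone TSS, 11 covered more than 1 (44.0%), 9 of them 2 and 2 of them 3, and together the 25 covered 38 TSSs. Only the TSS farthest 5′ of each gene was counted, and in the histone intervals only histone TSSs. An annotated start of Trim17, not a histone gene, also lay in the 2015 bp interval at Hist3h2a and was not counted. Hist1h2be was therefore counted at the start of its longer model, in the 2138 bp interval with Hist1h1e, and not in its 1343 bp interval. Among the other intervals over a protein coding TSS, 1040 of 10472 (9.93%) covered more than 1. The intervals over 3 histone TSSs were 2816 bp wide, over Hist1h2bl, Hist1h2ai and Hist1h3h, and 2571 bp wide, over Hist2h2ab, Hist2h2ac and Hist2h2be.

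Head-to-head pairs accounted for 8 of these 11 intervals. There were 13 pairs of protein coding histone genes with starts at most 1 kb apart, 12 of an H2A and an H2B gene and 1 of Hist1h2bh and Hist1h3f. The H2A and H2B starts were 168 to 306 bp apart, with a median of 228.5 bp. These are the starts of the gene models, some of which are incomplete. Those of Hist1h2bl and Hist1h2bn, 381 bp each, end before the stem-loop. Whether such models also leave out transcribed bases at the 5′ end, which would lengthen these distances, was not tested. In 8 of the 12 pairs 1 peak covered both starts, and in the other 4 the list held no peak at either gene. Of 813 head-to-head pairs of other protein coding genes, 84.7% had 1 peak over both starts.

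The peaks over the 8 open pairs had a median width of 1883 bp, and their midpoints lay a median of 91.25 bp from the centre between the starts. The narrowest was the 1307 bp peak over Hist1h2bf and Hist1h2ad, whose starts are 185 bp apart. That over Hist1h2ah and Hist1h2bk was 2225 bp wide for starts 178 bp apart, that over Hist1h2ae and Hist1h2bg 1647 bp for 176 bp, and that over Hist1h2ac and Hist1h2bc 1850 bp for 251 bp. In these 4 pairs the widths did not follow the order of the distances between the starts. Of the remaining open pairs, Hist1h2an and Hist1h2bp had a 1878 bp peak, Hist1h2ag and Hist1h2bj had a 1888 bp peak, and the other two pairs lay in the intervals over 3 starts. In other protein coding genes the median width over such a pair was 1512 bp.

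Intervals over 2 starts that are no such pair joined Hist1h3c with Hist1h2bb (2434 bp, starts 1132 bp apart), Hist1h4a with Hist1h3a (2500 bp, 1156 bp apart) and Hist1h2be with Hist1h1e. The first and the second of these, both intervals over 3 starts and that of Hist1h2ah and Hist1h2bk were the 5 widest histone intervals. Hist1h3c, Hist1h2bb, Hist1h4a and Hist1h3a lay wholly inside their peaks.

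The histone intervals had a median width of 1265 bp, with quartiles of 995.75 and 1880.5 bp, beside 1081 bp in the whole list. Within 1 kb of the assigned TSS the medians were 1606.5 bp (n = 26) and 1326 bp (n = 11772), and beyond it 827 bp (n = 10) and 911 bp (n = 14460). Intervals over a single histone TSS had a median of 1199.5 bp, below the 1335.5 bp of other intervals over 1 protein coding TSS. Intervals over 2 histone TSSs had a median of 1888 bp, against 1508.5 bp. The greater width of promoter intervals at histone genes was thus seen where the interval held more than 1 histone start and not where it held 1.

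**Figure D3:**
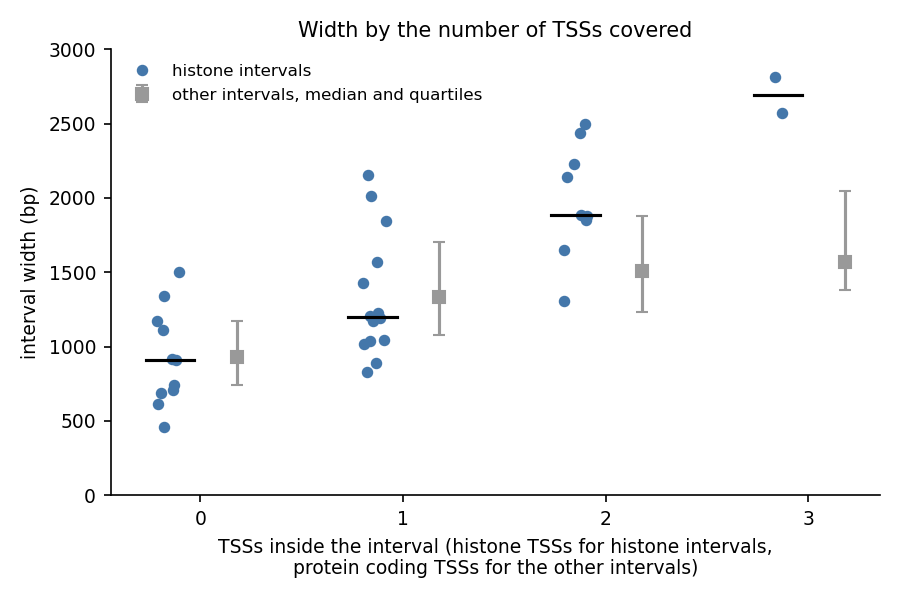
Width in bp of the 36 histone intervals (points, with the median as a line) by the number of histone TSSs inside, beside the median and quartiles of other intervals by the number of protein coding TSSs inside (squares). The medians of histone intervals go from 909 bp over no start to 1199.5, 1888 and 2693.5 bp over 1, 2 and 3 starts, and those of the other intervals from 927 to 1335.5, 1508.5 and 1567 bp.

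The narrowest histone intervals were those assigned to Hist2h3c2 (458 bp), Hist1h2br (613 and 707 bp), Hist1h2ah (685 bp) and Hist1h4c (745 bp). None of them covered a histone TSS. The other intervals over none were 909 bp (Hist1h2br), 920 bp (Hist1h1a, at 8970 bp), 1112 bp (Hist2h2be, at 6159 bp), 1172 bp (Hist1h2bj), 1343 bp (Hist1h2be) and 1501 bp (Hist2h2bb, at 8346 bp). That of Hist1h2be counts as over none only because the TSS farthest 5′ of each gene was used. Its deposited distance of 361 bp places the start it was assigned to inside it. Of the 11 intervals counted as over none, those of Hist1h2be and Hist2h2bb lay on an exon of their gene and that of Hist1h2ah in an intron of the gene model Gm11292, and the midpoints of the others were intergenic.

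Members near and far from their TSS also differed in base composition. Within 1 kb the median GC content was 51.4% and the median CpG ratio 0.816, against 58.6% and 0.685 for all intervals within 1 kb. Histone promoter peaks thus had less GC and a higher CpG ratio than promoter peaks in general, by these medians. Beyond 1 kb the histone intervals had medians of 48.1% and 0.406, against 51.4% and 0.242 in the whole list. The lowest CpG ratio, 0.142, was in the interval at 28128 bp from Hist1h2br.

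Histone genes are short, with a median length of 530 bp against 15427 bp over all protein coding genes, so a promoter peak can hold the entire gene. Of the 30 histone genes of at most 1 kb whose TSS was in a peak, 28 lay wholly in peaks (93.3%, 78.7 to 98.2). The exceptions were Hist1h3g, with 99.1% of its length covered, and Hist1h2ae, with 89.9%. Of 101 other intronless genes of that size with the TSS in a peak, 77 lay wholly in peaks (76.2%, 67.1 to 83.5). Peaks at promoters were found at 7.02% of the 1582 other intronless genes of at most 1 kb.

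Most peaks ended beyond the genes of at most 1 kb. For the 30 such genes with the TSS in a peak, the reach past the annotated end ran from -71 to 1461 bp, with a median of 270 bp. For the 28 genes wholly in peaks, where this reach cannot be negative, it was 14 to 1461 bp, with a median of 274.5 bp. Of the longer genes with the TSS in a peak, only Hist1h2ai had a peak that passed its end. At the others the peak stopped short of it, as at Hist1h1d (-2137 bp) and Hist2h2be (-1969 bp). The stem-loop lay in the same peak as the TSS in 33 of 34 genes. In the remaining gene, Hist1h2be, whose TSS was taken from its longer model, it lay in its other interval. The median stretch of peak past the stem-loop was 293.5 bp. The coding sequence and the stem-loop of these 33 genes, with some DNA past the stem-loop, were thus within the called region. Examples are Hist1h2ad, Hist1h2bk, Hist1h3b, Hist1h1d and Hist1h4d, printed with the stem-loops. The stem-loop of Hist4h4, of the same H4 form, lay outside any peak.

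Upstream, the share of genes in a peak differed with the arrangement of the genes. A base counted whether it lay in the peak over the TSS or in another. At 800 bp before the TSS 57.9% of the 38 covered histone genes were in a peak, against 24.3% of 11532 other protein coding genes. The share was 83.3% for the 18 genes with a head-to-head histone partner and 35.0% for the 20 without. Farther out the order turned, with 11.1% for genes with a partner and 30.0% for those without at 1500 bp before the TSS. The latter were genes whose peak also covered another histone start, and Hist1h3b. Its own peak reached 425 bp upstream, and the base lay in the interval of Hist1h2ab. At 600 bp after the TSS the shares were 84.2% for histone genes, 70.5% for other genes and 69.3% for other short intronless genes. At 1000 bp after it they were 23.7%, 25.2% and 27.7%, and at 1500 bp 21.1%, 7.20% and 3.96%, so that the order of the curves changed with distance.

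**Figure D4:**
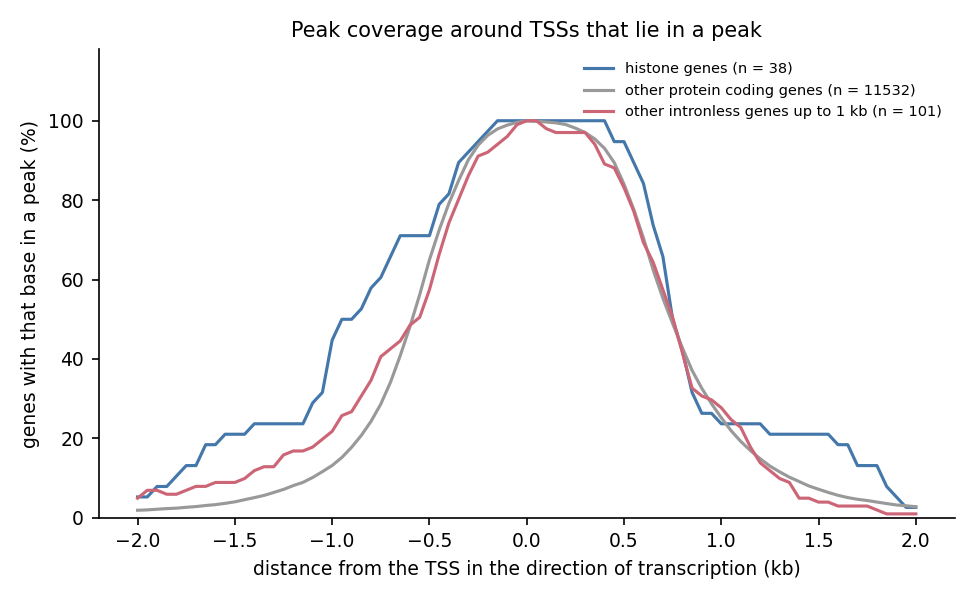
Share of genes (%) with the base at each distance from the TSS in a peak, for genes whose TSS is in a peak, against distance in kb in the direction of transcription. At 800 bp before the TSS the histone curve is at 57.9%, against 24.3% for other genes and 34.7% for other short intronless genes, and all histone genes are covered up to 400 bp after it.

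Several histone genes are near-identical copies, which limits what a list of mapped reads can show. The measure used was the share of 32-base words of a promoter window found more than once in mm9 on either strand. Its median was 37.0% in histone promoters with a peak and 35.7% in those without, and 0% over all protein coding promoters. Repeated sequence was thus common in histone promoters of both kinds, and the medians did not separate them. The upper ends did, since the highest value with a peak was 62.1%, at Hist1h2ad.

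All 6 histone promoters with at least 90% repeated words lacked a peak (0%, 0 to 39.0). They were Hist1h2bq, Hist1h2ao, Hist1h2ap and Hist1h2br with 100%, Hist1h4m with 96.2% and Hist1h4n with 97.1%. The interval treats these promoters as independent, which they are not. They are identical or near-identical copies, and the windows of the head-to-head genes overlap. Over all genes 8.79% of 808 promoters with such repeated sequence had a peak. All 6 histone promoters were CpG-rich, and of the 50 CpG-rich promoters among the 808 a peak lay at 26 (52.0%, 38.5 to 65.2). Hist2h3c1 (72.6%), Hist2h2aa1 and Hist2h2aa2 (70.9% each) also lacked one. Without the 6 promoters 30 of 44 CpG-rich histone promoters had a peak (68.2%, 53.4 to 80.0), against 89.6% over all CpG-rich promoters with under 90% repeated words. These groups were not matched for repeated words, which reached 72.6% among the 44. The upper quartile over all protein coding promoters was 5%. Whether repeated sequence has a part in this difference was not tested. Among the genes without a promoter peak Hist4h4, Hist1h1t, Hist1h1a, Hist2h2bb, Hist2h4 and Hist1h2aa had at most 4.95% repeated words. Among those with one, Hist1h1b (2.06%), Hist1h3f (0.619%) and Hist1h2be (0%) had as few.

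**Figure D5:**
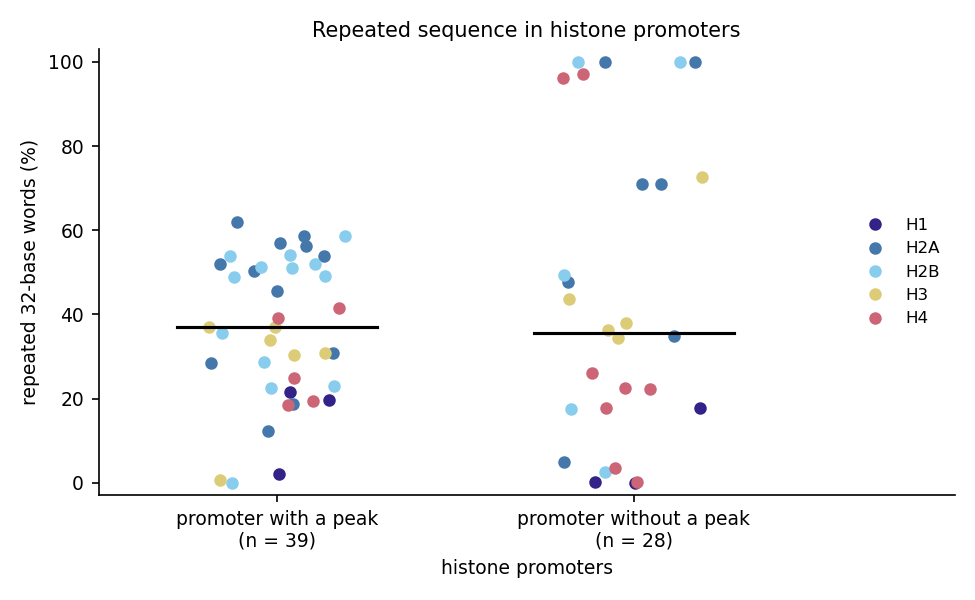
Share of 32-base words in each promoter window that are found more than once in mm9 (%), for histone promoters with and without a peak, coloured by family, with medians as lines. Both medians are near 36% (37.0% and 35.7%), and the 9 promoters above 62.1% all lack a peak.

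The copies also bear on the naming of an interval. Hist1h2bq and Hist1h2ao on one side and Hist1h2ap and Hist1h2br on the other form an inverted duplicate, and over the TSS with 500 bp on either side Hist1h2ao and Hist1h2ap differed at 0 of 1001 bases, as did Hist1h2bq and Hist1h2br. Hist1h4m and Hist1h4n differed at 4 of 1001 bases. The 613 bp interval assigned to Hist1h2br (chr13:21894688-21895300) consisted wholly of repeated words. The same 613 bases stood with 0 mismatches on the other strand at chr13:21932380-21932992, and there the list held no interval. Its deposited distance of 7075 bp was measured from the TSS of Hist1h2bq, the copy, and those of 21660 and 28128 bp from that of Hist1h2br. The symbol, and which copy was accessible, are therefore uncertain for this interval. How reads from such copies were placed was not tested.

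The promoter words of histone genes were counted in the RefSeq promoter windows of GRCm38.p6, 250 bases before to 50 after each start, on both strands. Of the 67 protein coding histone genes 60 had such a window. CCAAT was in 51 (85.0%, against 37.4% of 32851 windows), in all windows of H1, H2A, H2B and H3 genes and in 3 of 12 of H4. TATAAA was in 35 (58.3%, against 13.6%), in every family. The octamer ATTTGCAT, which the factor Pou2f1 (Oct1) binds, was in 7 of 17 H2A and 7 of 16 H2B windows and in none of the other families, against 1.74% of all windows. The H1 box AAACACA was in 5 of 6 H1 windows, 2 of 17 of H2A and 2 of 16 of H2B, against 7.18%. The E2F words TTTGGCGC or TTTCGCGC were in 5 H2A and 4 H2B windows, against 0.813%.

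By presence of a peak, CCAAT was in 31 of 34 windows with a peak and 20 of 26 without, TATAAA in 24 and 11, the octamer in 11 and 3, the H1 box in 5 and 4, and the E2F words in 8 and 1. The E2F words were those of the pairs Hist1h2an and Hist1h2bp, Hist1h2ah and Hist1h2bk, Hist1h2ag and Hist1h2bj, and Hist1h2bf and Hist1h2ad, which all had a peak, and of Hist1h2af, which had none. Genes of a head-to-head pair share sequence, so these windows are not independent, and a match does not show binding.

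Of 21 genes listed for the synthesis and processing of histone mRNA, 19 had an interval under their own symbol within 1 kb of the TSS, and the promoters of the other two, Cpsf3 and Ncbp2, were overlapped by peaks named for neighbours. They included Npat (1533 bp at -3 bp), Slbp (1763 bp at 245 bp), Casp8ap2 (1149 bp), a partner of Npat, Lsm10 and Lsm11 (1161 and 1560 bp), parts of the U7 snRNP that cuts the mRNA, and Hinfp (1228 bp), a factor for H4 promoters. Pou2f1 had a 2797 bp interval, and the S-phase regulators Ccne1, Ccne2, Cdk2 and E2f1 had intervals of 1856, 2685, 1506 and 2801 bp. Most of their promoters are CpG-rich, a class of which 89.4% had a peak in the list.

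Of 14 replication-independent histone genes, which are expressed outside S phase as well, 10 had an interval within 1 kb. These were H2afx, H2afy, H2afy2, H2afz, H2afv, H2afj, H3f3a, H3f3b, H1fx and the centromeric variant Cenpa, with widths from 1055 bp (Cenpa) to 2589 bp (H1fx). Except for H3f3b, their promoters were CpG-rich, a class of which 89.4% had a peak in the list. Hils1, H1foo and H2afb1, variants of germ cells, had no interval within 1 kb. Their promoters were CpG-poor, a class of which 24.7% had a peak. H1f0 was in neither the list nor the annotation under this symbol.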

How the data were processed

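ATAC-seq was performed on 2 samples of day 5 CPCs. Per the study's methods, the authors mapped reads to mm9 with bowtie2, kept proper pairs with SAMtools, removed duplicates with Picard 1.136, called peaks with MACS, dropped blacklisted peaks, and kept peaks overlapping between replicates with bedtools 2.15. The methods name neither a filter on mapping quality nor a shift of reads to the Tn5 cut site. The deposited list gives each interval's start and end and its signed distance to a TSS in bp (other units), with a RefSeq accession and symbol. It has no counts, signal or value per replicate, so depth and replicate error are unknown, absence from the list does not show closed chromatin, and widths are those of the caller.

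Distinct intervals were used once, 1-based on mm9, and 26232 of them ended inside the mm9 chromosomes. Gene models came from GENCODE vM1, where 67 protein coding genes and 3 pseudogenes bear replication-dependent histone names. Promoter sequences came from RefSeq (GRCm38.p6), matched by symbol or synonym for 60 of the 67, and were used without coordinates. Of the 36 deposited distances, 20 matched a GENCODE TSS within 1 bp. Repeated words were counted for k = 32, at every position for histone genes and every 50 bases elsewhere, with k = 50 as an alternative. The word counter and the overlap of promoters with peaks were tested on simulated data. Python 3.11.15, numpy 2.4.6, pandas 2.3.3 and scipy 1.17.1 were used. Named genes were those with 2 or more intervals, the 5 widest and 5 narrowest intervals, those beyond 10 kb, all Hist2, Hist3 and Hist4 members, peaks over 2 or more histone TSSs, and histone genes without a promoter peak, with the families described by counts. Other genes named in the text, such as examples of printed sequences, fall outside this rule and were chosen after their values were seen. Members and lists were chosen with earlier results of these data known.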

Additional observations from a re-analysis of the deposited data

How the results depend on the processing

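With 1 group and 1 list for both replicates, no test was run. No paired analysis was possible because the list has no value for a single replicate, and for the same reason neither replicate could be left out. Of 25 alternative values for 10 results, 24 stayed within the 95% interval of the value reported or, for counts, within 1.5 times of it. Some of these could not differ. Each histone line was a distinct interval and no intervals overlapped, so counting every line or merging overlaps changed nothing. The count of 24 intervals wider than the median of the list, in place of 36, sat exactly at the limit of 1.5 times. The share of histone intervals within 1 kb of the TSS moved from 72.2% to 87.5% (21 of 24) when intervals up to the median width of the list were left out, which removes the narrower distal intervals by construction. The share of histone promoters with a peak ran from 50.7% (wide peaks only) to 59.3% (genes with a stem-loop only), and was 56.7% with the TSS base covered and 56.7% around the first coding base. The latter, the use of any annotated TSS and the width of intervals at histone genes (1566 bp) were chosen after seeing the data. By overlap with a histone gene or the 500 bp before it, 27 intervals were counted in place of 36. Since depth is unknown, promoters missing from the list were not detectable as open here, which does not show them closed.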

Other observations

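The Hist3 intervals were at Hist3h2ba (1429 bp wide, 29 bp from the TSS) and Hist3h2a (2015 bp, -38 bp), and both Hist3 genes had a promoter peak. The Hist3h2a interval also covered the pseudogene Hist3h2bb-ps, which starts 173 bp away on the other strand. At Hist1h2bm the 1566 bp interval likewise held the pseudogene model Hist1h2aj. In the Hist2 group 3 of 9 protein coding genes had a promoter peak, all under 1 interval, and the other 3 intervals lay 6159 to 8346 bp from the assigned TSS. The deposited distance of 8237 bp for Hist2h3c2 matched no GENCODE TSS within 1 bp, so the start it was measured from is unknown.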
